A study of Mus musculus with 9 samples.

Results

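Brown fat cells in culture were treated for 8 h with 10 µM AM80 or with 10 µM AM73, and the compounds are compared here directly: 3 AM80 arrays against 3 AM73 arrays, 6 of the 9 arrays of the study. The other 3 arrays are of cells given the solvent DMSO, and their values stand beside the comparison as a common baseline. All cells were described as fully differentiated brown fat cells of C57BL/6 mice, so strain, cell type and time were shared by the groups and the compound was what the labels changed. The compounds carry code names, and the series title calls them chemical activators of PPARGC1A1, a form of the coactivator PGC-1α. They form 1 pair at a matched dose and a matched time, so 1 pair of compounds was compared. No structural difference between the compounds is given in the labels and none is stated here. The labels call the 3 arrays of a group technical replicates and do not name separate cultures, so p-values measure only the spread between these arrays. Each value is a log2 expression level, and each difference is AM80 minus AM73 on that scale. A gene was called when its adjusted p in limma was under 0.05, after Benjamini-Hochberg adjustment over 30860 genes, with 1 transcript cluster per gene.

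PGC-1α works by binding nuclear receptors such as PPARγ and ERRα and by raising the genes of mitochondria, fat burning and heat production. In brown fat, the uncoupling protein UCP1 then turns the energy of respiration into heat. The hypoxia-inducible factor HIF is a pair of proteins whose α subunit is hydroxylated by oxygen-sensing enzymes and destroyed. HIF acts when those enzymes are blocked or oxygen is short. It binds short DNA words such as ACGTG in promoters and raises genes of glycolysis, lactate export and blood vessel growth. Targets of HIF lay above DMSO with both compounds in the median, so they are a common ground for the comparison.

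Promoters of 5 genes are printed here because some HIF targets were called between the compounds and others were not. Slc16a3 and Ankrd37 were not called between the compounds, Kdm3a and Ero1a were lower with AM80, and Ppargc1a, which encodes PGC-1α, was lower as well. Each window runs from 250 bases before to 50 bases after a transcription start in RefSeq (build GRCm38.p6), 5′ to 3′ on the gene's strand. Capitals mark ACGTG or its reverse complement CACGT. The windows are Slc16a3 at chr11:120948817-120949116 (plus strand), Ankrd37 at chr8:45999801-46000100 (minus strand), Ero1a at chr14:45318523-45318822 (minus strand), Kdm3a at chr6:71632868-71633167 (minus strand, the farthest upstream of its 3 windows) and Ppargc1a at chr5:51567676-51567975 (minus strand).
Slc16a3: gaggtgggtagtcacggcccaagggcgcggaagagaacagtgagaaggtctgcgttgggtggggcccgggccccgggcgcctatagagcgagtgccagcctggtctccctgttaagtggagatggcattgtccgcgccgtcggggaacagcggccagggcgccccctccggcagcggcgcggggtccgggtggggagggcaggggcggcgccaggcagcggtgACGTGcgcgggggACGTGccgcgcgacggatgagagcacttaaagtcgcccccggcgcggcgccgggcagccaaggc
Ankrd37: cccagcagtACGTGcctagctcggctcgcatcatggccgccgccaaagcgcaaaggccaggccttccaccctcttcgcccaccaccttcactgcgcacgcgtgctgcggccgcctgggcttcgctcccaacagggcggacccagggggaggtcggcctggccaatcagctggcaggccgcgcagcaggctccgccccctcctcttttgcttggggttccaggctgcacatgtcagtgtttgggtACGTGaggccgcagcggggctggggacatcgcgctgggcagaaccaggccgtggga
Ero1a: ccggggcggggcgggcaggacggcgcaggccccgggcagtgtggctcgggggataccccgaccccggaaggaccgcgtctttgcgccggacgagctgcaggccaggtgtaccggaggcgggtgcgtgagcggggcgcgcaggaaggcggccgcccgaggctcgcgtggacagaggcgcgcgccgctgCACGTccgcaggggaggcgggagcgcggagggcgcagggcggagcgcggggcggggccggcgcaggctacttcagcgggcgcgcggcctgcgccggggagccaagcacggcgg
Kdm3a: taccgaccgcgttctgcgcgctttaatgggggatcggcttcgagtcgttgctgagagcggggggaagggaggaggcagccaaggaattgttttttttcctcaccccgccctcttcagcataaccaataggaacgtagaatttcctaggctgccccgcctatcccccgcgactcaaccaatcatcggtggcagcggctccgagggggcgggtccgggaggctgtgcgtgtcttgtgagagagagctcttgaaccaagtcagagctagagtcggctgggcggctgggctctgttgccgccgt
Ppargc1a: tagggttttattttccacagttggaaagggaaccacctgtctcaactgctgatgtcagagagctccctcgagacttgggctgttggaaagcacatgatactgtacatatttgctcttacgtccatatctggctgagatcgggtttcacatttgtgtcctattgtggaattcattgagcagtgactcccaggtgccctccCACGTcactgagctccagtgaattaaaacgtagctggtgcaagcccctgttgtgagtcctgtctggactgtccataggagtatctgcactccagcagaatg
The word stood at 2 places in each of the Slc16a3 and Ankrd37 windows and at 1 place in each of the Ero1a and Ppargc1a windows. It was in none of the 3 Kdm3a windows. Of 29 HIF target genes on the list used here, 24 had a promoter in the table and 18 of these held the word. Slc16a3, which is on the glycolysis list, and Ppargc1a are not on that list and are not in these counts. The word was found in 3 of 5 promoters of targets lower with AM80, in 14 of 18 of targets that were not called, and in the promoter of the target that was higher. Among all tested genes with a promoter 23.6% held it, and 19.6% of all windows of this length did. For genes with a mean of at least 4 in the higher group, as nearly all of these targets had, it was 30.8%. A match is a run of letters, not a site that HIF is known to bind. Other words that HIF may bind were not searched for, so a window without ACGTG is not shown to lack a HIF site.

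**Figure D1:**
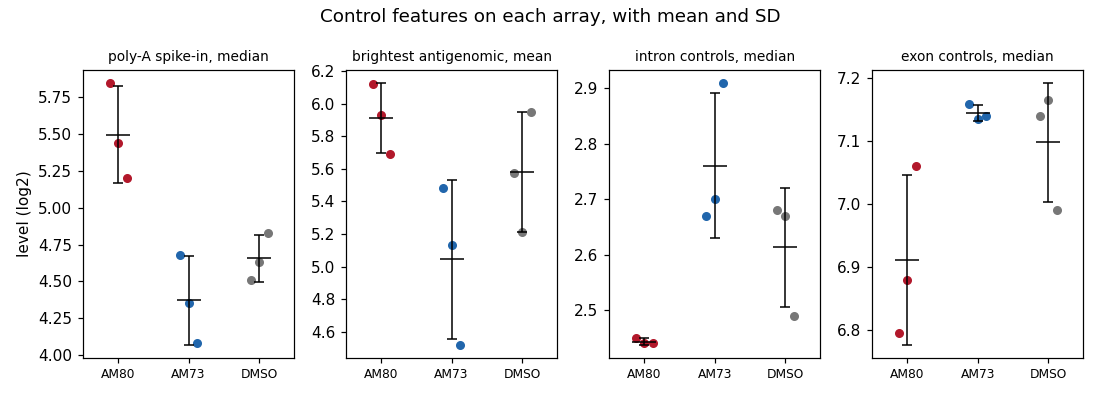
Levels (log2) of control features on each array, with AM80 left of AM73 and DMSO. Points are arrays, with the group mean and SD (n = 3). The poly-A controls and the bright antigenomic probe sets lay higher on the 3 AM80 arrays than on the 3 AM73 arrays, and the intron and exon control features lay lower.

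The AM80 arrays differed from the AM73 arrays in control features outside the genes tested. The poly-A controls, foreign RNAs spiked into a sample ahead of labelling, had medians of 5.85, 5.44 and 5.20 with AM80, against 4.68, 4.35 and 4.08 with AM73. The 6 brightest antigenomic probe sets, which match no mouse sequence, averaged 6.12, 5.93 and 5.69 with AM80, against 5.48, 5.13 and 4.52 with AM73. In both, the AM80 and AM73 arrays did not overlap (exact permutation test, two-sided, p = 0.1 each, the smallest p that 3 against 3 arrays allow). Exon control features are listed in the array annotation under normalization genes, unlike the spiked and antigenomic features. They had medians of 6.80, 6.88 and 7.06 with AM80 and 7.16, 7.14 and 7.14 with AM73. On the first principal component of the genes, with 58.7% of the variance, the AM80 arrays lay at 74.7, 53.7 and 31.2 and the AM73 arrays between −41.6 and −29.9. A letter and number close each array's name and were taken as its plate position, which no label explains. By that reading all AM80 arrays lay in column 5 with AM73 replicate 2 and DMSO replicate 2. Within column 5, 0 genes were called in limma (5446 had an unadjusted p under 0.05), and with the column in the model 3513 were. With the 6 antigenomic probe sets as a covariate limma also gave 0 calls (4572 genes with an unadjusted p under 0.05), with medians of −1.74 for cohesin genes (−2.12 without the covariate), 0.77 for histones (0.78), 0.74 for small nucleolar RNA genes (0.91) and 0.42 for complex I (0.53). That covariate lay higher on every AM80 array than on every AM73 array, so array background and compound cannot be told apart by it. In these probe sets the DMSO arrays had 5.57, 5.21 and 5.95, and DMSO replicate 3 lay within the range of the AM80 arrays. On the first principal component the DMSO arrays lay at −34.4, −22.6 and 2.5, so replicate 3 was the nearest of them to AM80. Scaling the arrays to the poly-A controls lowered every difference by 0.87, so each rise and fall is relative to how most genes of that array stood. Across genes, pairs of arrays within a group correlated at 0.982 to 0.989 for AM80 and 0.989 to 0.991 for AM73, and the number of arrays limits the precision.

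The cells matched their label in part. General fat cell markers were strong, with a median level of 9.83 over 10 genes, and the fatty acid carrier gene Fabp4 had 12.40, 12.52 and 12.57 with AM80, against 12.58, 12.48 and 12.48 with AM73. Brown fat markers were mixed, with a median level of 4.99 over 12 genes. That was near the 4.88 of the 6 measured white fat markers, of which 1 was called lower. The brown fat regulator Ebf2 had 6.33, 6.29 and 6.75 with AM80, against 7.75, 7.58 and 7.84 with AM73. The thyroid hormone deiodinase Dio2 had 1.91, 2.85 and 2.16 with AM80, against 2.70, 2.07 and 1.88 with AM73, near the antigenomic median of the arrays (2.07 to 2.32), and so cannot support its part of the label. Markers of macrophages and of endothelial cells had median levels of 2.37 over 8 genes and 2.29 over 7, and 0 of them were called in limma between the compounds. Of 10 fibroblast and preadipocyte markers, with a median level of 3.03 and a highest of 8.08, 0 were called in limma. At an unadjusted p under 0.05 stood 2 of the 8, 0 of the 7 and 3 of the 10. In fits that left out 1 array, 1 macrophage marker was called without AM80 replicate 3 or AM73 replicate 2, and 1 fibroblast marker without AM80 replicate 1 or 3. Of 9 skeletal muscle markers, with a median level of 2.98, 1 was called higher with AM80. The label also calls the cells fully differentiated, and 28 replication and mitosis genes had a median level of 8.12 and a lowest of 5.60. Whether the cells were still dividing was not tested.

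**Figure D2:**
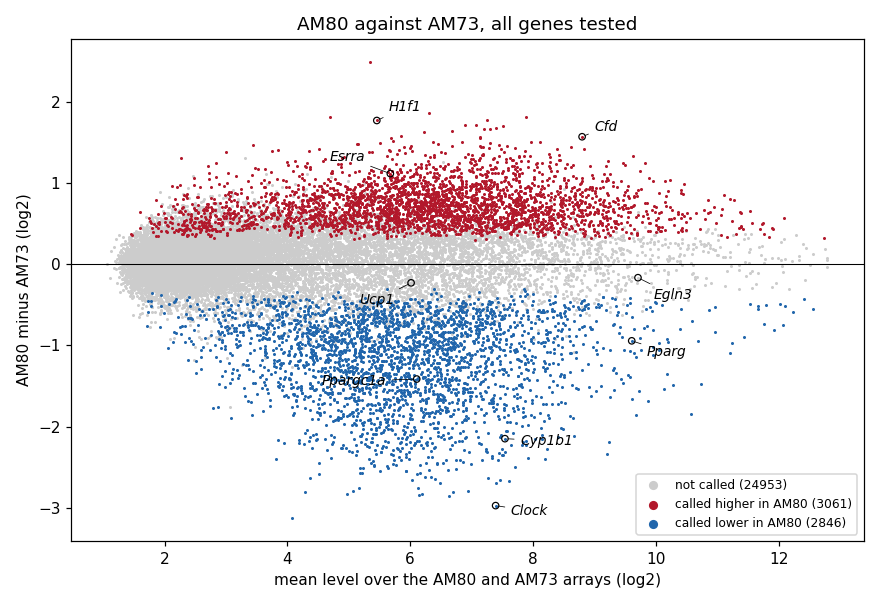
Difference AM80 minus AM73 (log2) against mean level over the AM80 and AM73 arrays (log2), 1 point per gene, with called genes coloured by direction. Most called genes lay at levels above 4, and falls reached farther from 0 than rises.

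Between the compounds 5907 genes were called, 19.1% of those tested. AM80 was higher in 3061 (9.92%) and lower in 2846 (9.22%). Falls were steeper than rises: the median called fall was −1.07 and 1581 falls exceeded 1 in size, against a median called rise of 0.69 with 406 rises above 1. Beyond 2 in size there were 243 falls and 1 rise. That rise was in the mitochondrial glutamine tRNA gene mt-Tq (7.26, 6.19 and 6.30 with AM80, against 3.65, 3.31 and 5.32 with AM73), named after its values were seen, whose 4 probes are given as cross-hybridising. Its call was lost without AM80 replicate 1, AM73 replicate 1 or AM73 replicate 2 (adjusted p from 0.0560 to 0.0620), with plate column in the model and in an ordinary linear model. The 3 AM80 arrays did not move alike. AM80 replicate 1 was the most extreme of them in 2160 of the 3061 rises and 1980 of the 2846 falls, and replicate 3 in 230 and 133. Replicate 1 also had the highest poly-A and antigenomic levels of the AM80 arrays and replicate 3 the lowest, and the part of this in the gene differences was not tested. Of 10814 genes with a mean of at least 4 in the higher group, 49.9% were called, 25.3% higher and 24.6% lower, and most lists below hold mainly such genes. The counts of each list are to be read beside these shares. The 3 AM80 arrays lay apart from the 3 AM73 arrays in 9734 genes (31.5% of all tested), above them in 5820 (18.9%) and below them in 3914 (12.7%). AM80 differed from DMSO in 4302 genes (13.9%) and AM73 differed from DMSO in 37 (0.12%), contrasts that share the DMSO arrays.

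The 12 largest rises with AM80 relative to AM73, among named genes without probes given as cross-hybridising, were led by histone genes. The linker histone gene H1f1 (chromosome 13, 23763668 to 23764414, plus strand) had 6.81, 6.52 and 5.69 with AM80, against 4.50, 4.42 and 4.80 with AM73. Its difference was 1.77 ± 0.25 (SE, adjusted p = 0.00153), 3.4-fold. All 3 AM80 arrays lay above the AM73 arrays, replicate 3 by the least, and DMSO lay between (5.04, 5.03 and 5.36). The histone H2A genes H2ac21 and H2ac11 were higher by 1.71 and 1.67 (adjusted p = 0.00154 and 0.00137). The histone H4 gene H4c17 was higher by 1.67 (adjusted p = 0.000641). However, 11 transcript clusters on chromosomes 3, 6 and 13 carry this symbol, and their differences ran from 0.09 to 1.67. The adipokine gene Cfd (chromosome 10, 79890853 to 79892656, plus strand), which encodes adipsin, a protease of the complement system released by fat cells, had 9.97, 9.55 and 9.23 with AM80, against 8.01, 8.20 and 7.84 with AM73. It was higher by 1.57 ± 0.18 (SE, adjusted p = 0.000864), and DMSO again lay between (8.66, 8.63 and 8.87). Terc, the RNA template of telomerase, had 8.35, 8.00 and 7.42 with AM80, against 6.70, 6.54 and 5.85 with AM73, and was higher by 1.56 (adjusted p = 0.00316). The others were Myl6b, a myosin light chain (1.52, adjusted p = 0.00257), Scarna6, a guide RNA of Cajal bodies (1.5, adjusted p = 0.00198), Mrpl54 of the mitochondrial ribosome (1.5, adjusted p = 0.00151) and the mitochondrial asparagine tRNA gene mt-Tn (1.5, adjusted p = 0.00355). Cdc34, a ubiquitin-conjugating enzyme (1.49, adjusted p = 0.00602), and Rack1, a scaffold on the ribosome (1.49, adjusted p = 0.00237), complete them. A second cluster of Rack1 differed by 0.49. Cdc34 had 7.01, 5.78 and 5.97 with AM80, against 4.50, 5.08 and 4.71 with AM73, and its call was lost with plate column in the model.

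The 12 largest falls were steeper and were in genes of other roles. The circadian transcription factor gene Clock (chromosome 5, 76210967 to 76304792, minus strand) had 5.39, 5.85 and 6.48 with AM80, against 8.77, 8.82 and 9.04 with AM73. It fell by 2.97 ± 0.38 (SE, adjusted p = 0.00105), 7.84-fold. The groups did not overlap, and DMSO replicate 3 lay toward AM80 (9.12, 8.83 and 7.58). Ranbp2, a giant protein of the nuclear pore, had 4.56, 5.26 and 5.77 with AM80, against 8.02, 7.94 and 8.20 with AM73, and differed by −2.86 (adjusted p = 0.000693). Trp53inp1, a p53 target, had 4.35, 4.57 and 5.25 with AM80, against 7.59, 7.47 and 7.63 with AM73, and differed by −2.84 (adjusted p = 0.000641). In both genes the AM73 arrays stayed near DMSO (8.27, 7.96 and 7.42 for Ranbp2 and 7.99, 7.57 and 7.12 for Trp53inp1). The mRNA export factor Thoc2 differed by −2.83 (adjusted p = 0.00104), the deubiquitinase Usp9x by −2.80 (adjusted p = 0.000641), and Dmxl1 by −2.82 (adjusted p = 0.000756). Pgap1, which trims lipid anchors of surface proteins, had 2.83, 2.85 and 2.98 with AM80, against 5.45, 5.76 and 5.85 with AM73, at or near background with AM80. It differed by −2.80 (adjusted p = 0.000641). The Ras inactivator Rasa1 (−2.79, adjusted p = 0.000902), the cohesin regulator Pds5a (−2.79, adjusted p = 0.000648), the ubiquitin-activating enzyme Uba6 (−2.75, adjusted p = 0.000641), the channel kinase Trpm7 (−2.75, adjusted p = 0.000641) and the dehydrogenase Dhrs9 (−2.69, adjusted p = 0.00111) were the others. Of the 12, each kept its call with plate column in the model, and each lost it with the antigenomic covariate, where the differences ran from −2.43 for Trp53inp1 to −2.10 for Clock and adjusted p from 0.0609 for Pds5a and others to 0.101 for Dhrs9.

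**Figure D3:**
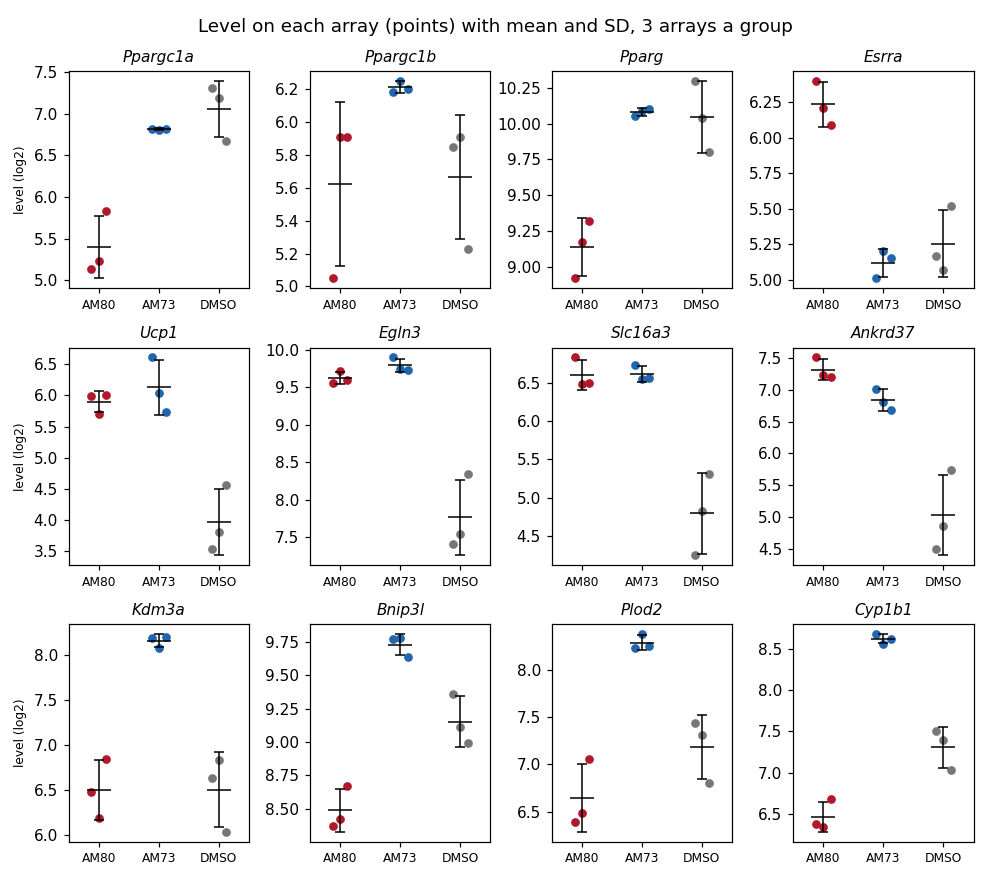
Levels (log2) of selected genes on each array, with AM80 left of AM73 and DMSO. Points are arrays, with the group mean and SD (n = 3). Ppargc1a, Pparg and Cyp1b1 lay lower on all AM80 arrays than on all AM73 arrays and Esrra lay higher, while Ucp1 and Slc16a3 overlapped.

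The gene of the named target was read next. Ppargc1a (chromosome 5, 51454249 to 51567725, minus strand) had 5.14, 5.23 and 5.83 with AM80, against 6.82, 6.80 and 6.82 with AM73, with 7.31, 7.19 and 6.67 for DMSO. With AM80 it fell by 1.41 ± 0.21 (SE, adjusted p = 0.00166), 2.66-fold, and the groups did not overlap. Against DMSO, AM80 differed by −1.66 and AM73 by −0.24. Ppargc1b, the gene of the related coactivator PGC-1β, had 5.05, 5.91 and 5.91 with AM80, against 6.18, 6.25 and 6.20 with AM73, and was not called (−0.59, 95% interval −1.14 to −0.03, adjusted p = 0.141). Of the 20 coactivator, receptor and biogenesis genes 4 were higher and 4 lower, with a median of 0.12 (−0.74 scaled to poly-A). Esrra, which encodes the PGC-1α partner ERRα, had 6.40, 6.21 and 6.09 with AM80, against 5.01, 5.20 and 5.15 with AM73, and was higher by 1.11 ± 0.14 (SE, adjusted p = 0.00103). Pparg, encoding the receptor that drives fat cell differentiation, had 8.92, 9.17 and 9.32 with AM80, against 10.05, 10.09 and 10.10 with AM73, and fell by 0.94 ± 0.15 (SE, adjusted p = 0.00217). So the genes of these partner receptors differed in opposite directions, Esrra also being higher than DMSO with AM80 (0.98) and Pparg lower (−0.91). Gabpa, a factor for nuclear genes of mitochondria, had 6.76, 6.89 and 7.46 with AM80, against 8.53, 8.57 and 8.46 with AM73, and was lower (−1.48, adjusted p = 0.00166). Other members called were Tfam, which packs mitochondrial DNA (−0.53, adjusted p = 0.00806), Polrmt, the mitochondrial RNA polymerase (0.74, adjusted p = 0.00831), Ppard (0.76, adjusted p = 0.0104) and the shared receptor partner Rxra (0.62, adjusted p = 0.00785), the last 4 named after their values were seen. The call of Polrmt was lost with plate column in the model.

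Cofactors that act with nuclear receptors were mostly lower with AM80. Of 14 measured corepressors and coactivators other than PGC-1, 11 were lower with AM80 and 1 higher, with a median of −1.24 (−2.11 scaled to poly-A). The Mediator subunit Med13 had 5.49, 5.73 and 5.91 with AM80, against 7.66, 8.06 and 7.92 with AM73. The corepressor Ncor1 had 5.66, 5.80 and 6.17 with AM80, against 7.80, 7.66 and 8.01 with AM73. The coactivator Ncoa1 had 4.82, 5.15 and 5.59 with AM80, against 6.66, 6.73 and 6.66 with AM73. In each the AM80 arrays lay below the AM73 arrays by more than 1 at every array. Their differences were −2.17, −1.95 and −1.5 (adjusted p = 0.000722, 0.000864 and 0.000976), and that of Ncoa2 was −1.41 (adjusted p = 0.000903). With plate column in the model 9 were called lower.

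Ucp1 itself was not separated by the compounds. It had 5.99, 5.70 and 6.01 with AM80, against 6.61, 6.04 and 5.74 with AM73, and both groups lay above the DMSO values of 3.54, 3.80 and 4.56. The difference was −0.23 (95% interval −0.85 to 0.39, adjusted p = 0.643), and the interval holds differences of both signs. Of 27 thermogenic and brown fat marker genes 4 were higher and 4 lower, with a median of 0.12 (−0.75 scaled to poly-A, and 4 or 5 called in all without AM80 replicate 1, AM73 replicate 2 or AM73 replicate 3). That was 14.8% each way, and 11 of the 27 had a mean below 4 in the higher group. Over all genes tested 9.92% were higher and 9.22% lower, and 25.3% and 24.6% among genes with a mean of at least 4. Ebf2, which opens brown fat genes, was lower (−1.27, adjusted p = 0.00176), and the brown fat marker Zic1 by −0.64 (adjusted p = 0.00409, with 5.06, 5.35 and 5.35 with AM80, against 6.03, 5.84 and 5.82 with AM73). Nrg4, a growth factor that brown fat releases, was lower (−0.92, adjusted p = 0.00768). The potassium channel gene Kcnk3 had 7.13, 6.88 and 6.69 with AM80, against 6.12, 6.15 and 6.18 with AM73, and was higher by 0.75 (adjusted p = 0.0139). Its call was lost with plate column in the model, where 4 of the list were called lower, and without AM80 replicate 1 (adjusted p = 0.0536). Cidea, a lipid droplet protein of brown fat, was not called (0.12, 95% interval −0.48 to 0.72, adjusted p = 0.82), nor was Prdm16, a switch of brown fat fate (−0.49, 95% interval −0.86 to −0.12, adjusted p = 0.0704, and 0.0494 with the replicate block). Adrb3, the noradrenaline receptor that fires heat production, had 4.85, 4.79 and 4.53 with AM80, against 4.25, 4.47 and 4.20 with AM73, and was higher by 0.42 (adjusted p = 0.0389). Its call was lost with the column term and without any 1 of 6 arrays, all but AM80 replicate 3, AM73 replicate 2 and DMSO replicate 3 (adjusted p from 0.0545 to 0.127).

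HIF targets showed a split. Of 29 genes 7 were lower with AM80, 1 was higher and 21 were not called. All but 1 of the 29 had a mean of at least 4 in the higher group, and the 24.1% called lower was near the 24.6% of all genes at such levels, where 25.3% were higher against 3.45% of the list. The list had a median of −0.08 (−0.95 scaled to poly-A). Beside DMSO its median was 0.63 with AM80 and 0.96 with AM73. Egln3 (chromosome 12, 54178981 to 54203874, minus strand), a HIF target that encodes an oxygen-sensing hydroxylase, had 9.56, 9.72 and 9.60 with AM80, against 9.90, 9.75 and 9.73 with AM73. The lactate exporter gene Slc16a3 is on the glycolysis list and not among the 29. It had 6.83, 6.48 and 6.50 with AM80, against 6.73, 6.55 and 6.56 with AM73. Egln3 was lower on every AM80 array than on every AM73 array, by a narrow margin, the groups overlapped in Slc16a3, and in both genes all 6 arrays lay above DMSO (7.41, 7.54 and 8.34 for Egln3 and 4.25, 4.82 and 5.31 for Slc16a3). Their differences were −0.17 (95% interval −0.64 to 0.30, adjusted p = 0.661) and −0.01 (95% interval −0.52 to 0.50, adjusted p = 0.985). P4ha1, a collagen prolyl hydroxylase, had 9.13, 9.25 and 9.09 with AM80, against 9.43, 9.31 and 9.40 with AM73. The glucose transporter gene Slc2a1 had 9.78, 9.59 and 9.57 with AM80, against 9.59, 9.44 and 9.47 with AM73. Neither was called, with −0.22 (95% interval −0.47 to 0.03, adjusted p = 0.221) and 0.15 (95% interval −0.29 to 0.59, adjusted p = 0.682). Ankrd37, a small ankyrin-repeat gene, had 7.51, 7.23 and 7.21 with AM80, against 7.02, 6.81 and 6.69 with AM73, with every AM80 array above every AM73 array, and was not called (0.48, 95% interval −0.11 to 1.07, adjusted p = 0.273).

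Other HIF targets stood at lower levels with AM80. The histone demethylase gene Kdm3a (chromosome 6, 71588972 to 71632905, minus strand) had 6.47, 6.18 and 6.84 with AM80, against 8.19, 8.07 and 8.20 with AM73, with 6.63, 6.83 and 6.03 for DMSO. With AM80 it fell by 1.66 ± 0.22 (SE, adjusted p = 0.00113), its arrays overlapping the range of DMSO, while AM73 stood apart from both. Plod2, which modifies collagen lysines, had 6.39, 6.49 and 7.06 with AM80, against 8.23, 8.38 and 8.26 with AM73, and differed by −1.64 (adjusted p = 0.000994). The mitophagy receptor gene Bnip3l had 8.37, 8.42 and 8.67 with AM80, against 9.77, 9.78 and 9.64 with AM73, and differed by −1.24 (adjusted p = 0.000699). The related Bnip3 differed by −1.08 (adjusted p = 0.0019), and Ero1a, an oxidase of the endoplasmic reticulum, by −0.90 (adjusted p = 0.00101, with 10.87, 10.92 and 11.15 with AM80, against 11.96, 11.88 and 11.80 with AM73). Vegfa, the main blood vessel growth factor, had 9.58, 9.55 and 9.55 with AM80, against 10.22, 10.10 and 10.03 with AM73, with DMSO at 9.56, 9.51 and 9.60. It differed by −0.56 (adjusted p = 0.00332), lying 0.56 above DMSO with AM73 and overlapping DMSO with AM80. Pdk1, which closes the entry of pyruvate into mitochondria, had 7.31, 7.30 and 7.51 with AM80, against 7.96, 8.07 and 7.77 with AM73, and differed by −0.56 (adjusted p = 0.00699), while both groups lay above DMSO (6.97, 6.93 and 6.99). The target that was higher was Higd1a, a small protein of the mitochondrial inner membrane (8.09, 7.91 and 7.81 with AM80, against 7.51, 7.56 and 7.42 with AM73, 0.44, adjusted p = 0.0164). Bnip3, Pdk1, Higd1a, P4ha1 and Slc2a1 were named after their values were seen. The 7 falls stayed called with plate column in the model, and the rise of Higd1a did not, nor did it without AM73 replicate 3 (adjusted p = 0.0583).

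The genes of HIF-1α and of its partner were lower too. Hif1a, the oxygen-regulated subunit, had 4.41, 4.51 and 5.04 with AM80, against 6.39, 6.52 and 6.60 with AM73, and with AM80 it fell by 1.85 ± 0.22 (SE, adjusted p = 0.000878). Its constant partner Arnt had 7.10, 7.39 and 7.60 with AM80, against 8.08, 8.14 and 8.11 with AM73, and differed by −0.75 (adjusted p = 0.00344). In both genes AM73 lay near DMSO (6.67, 6.55 and 5.91 for Hif1a and 8.09, 8.07 and 7.98 for Arnt). Egln2, another oxygen sensor, was higher by 0.67 (adjusted p = 0.019, with 5.95, 5.99 and 5.58 with AM80, against 5.22, 5.26 and 5.02 with AM73). This call was lost with the column term and without AM80 replicate 1, AM80 replicate 2 or AM73 replicate 3 (adjusted p from 0.0670 to 0.0774). Of the 10 subunits and sensors 1 was higher and 2 lower, with a median of 0.08 (−0.79 scaled to poly-A). Glycolysis genes leaned the other way at this scaling: of 21, all with a mean of at least 4, 6 were higher with AM80 (28.6%, near the 25.3% of genes at such levels) and 1 lower (4.76% against 24.6%), with a median of 0.15 (−0.72 scaled to poly-A, and 4 called in all without AM80 replicate 1 or AM73 replicate 3). Pgam1 had 8.49, 8.11 and 7.97 with AM80, against 7.30, 7.40 and 7.25 with AM73. Ldhb had 6.56, 6.35 and 6.57 with AM80, against 5.68, 5.68 and 5.53 with AM73. Pfkm had 7.40, 7.10 and 6.87 with AM80, against 6.35, 6.40 and 6.52 with AM73. All are enzymes of the pathway or of lactate exchange, and in each the AM80 arrays lay above the AM73 arrays, by 0.87, 0.86 and 0.70 (adjusted p = 0.00516, 0.0045 and 0.00825). The muscle enolase gene Eno3 was higher by 0.81 (adjusted p = 0.00578). Hk2 and Ldha, classic HIF targets of glycolysis, were not called (0.06, 95% interval −0.25 to 0.37, adjusted p = 0.815 and 0.09, 95% interval −0.16 to 0.34, adjusted p = 0.666).

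Cyp1b1 separated the compounds without overlap. Cyp1b1 (chromosome 17, 79706894 to 79715061, minus strand), a cytochrome P450 raised by the aryl hydrocarbon receptor, had 6.38, 6.35 and 6.68 with AM80, against 8.67, 8.56 and 8.62 with AM73. DMSO lay between them at 7.50, 7.40 and 7.03. With AM80 it fell by 2.15 ± 0.14 (SE, adjusted p = 0.000641), 4.43-fold, with differences from DMSO of −0.84 for AM80 and 1.31 for AM73. Tiparp, another target of that receptor, had 4.58, 5.24 and 5.70 with AM80, against 7.56, 7.55 and 7.53 with AM73, and was lower (−2.37, adjusted p = 0.001). Of 8 genes of the receptor and its targets 3 were lower, these and the shared partner Arnt, and 0 higher, with a median of −0.29 (−1.16 scaled to poly-A, and 0 higher in limma at an unadjusted p under 0.05). Cyp1a1, its best-known target, had 2.80, 2.80 and 2.63 with AM80, against 2.88, 2.80 and 3.44 with AM73, near background, and was not called (−0.30, adjusted p = 0.318).

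**Figure D4:**
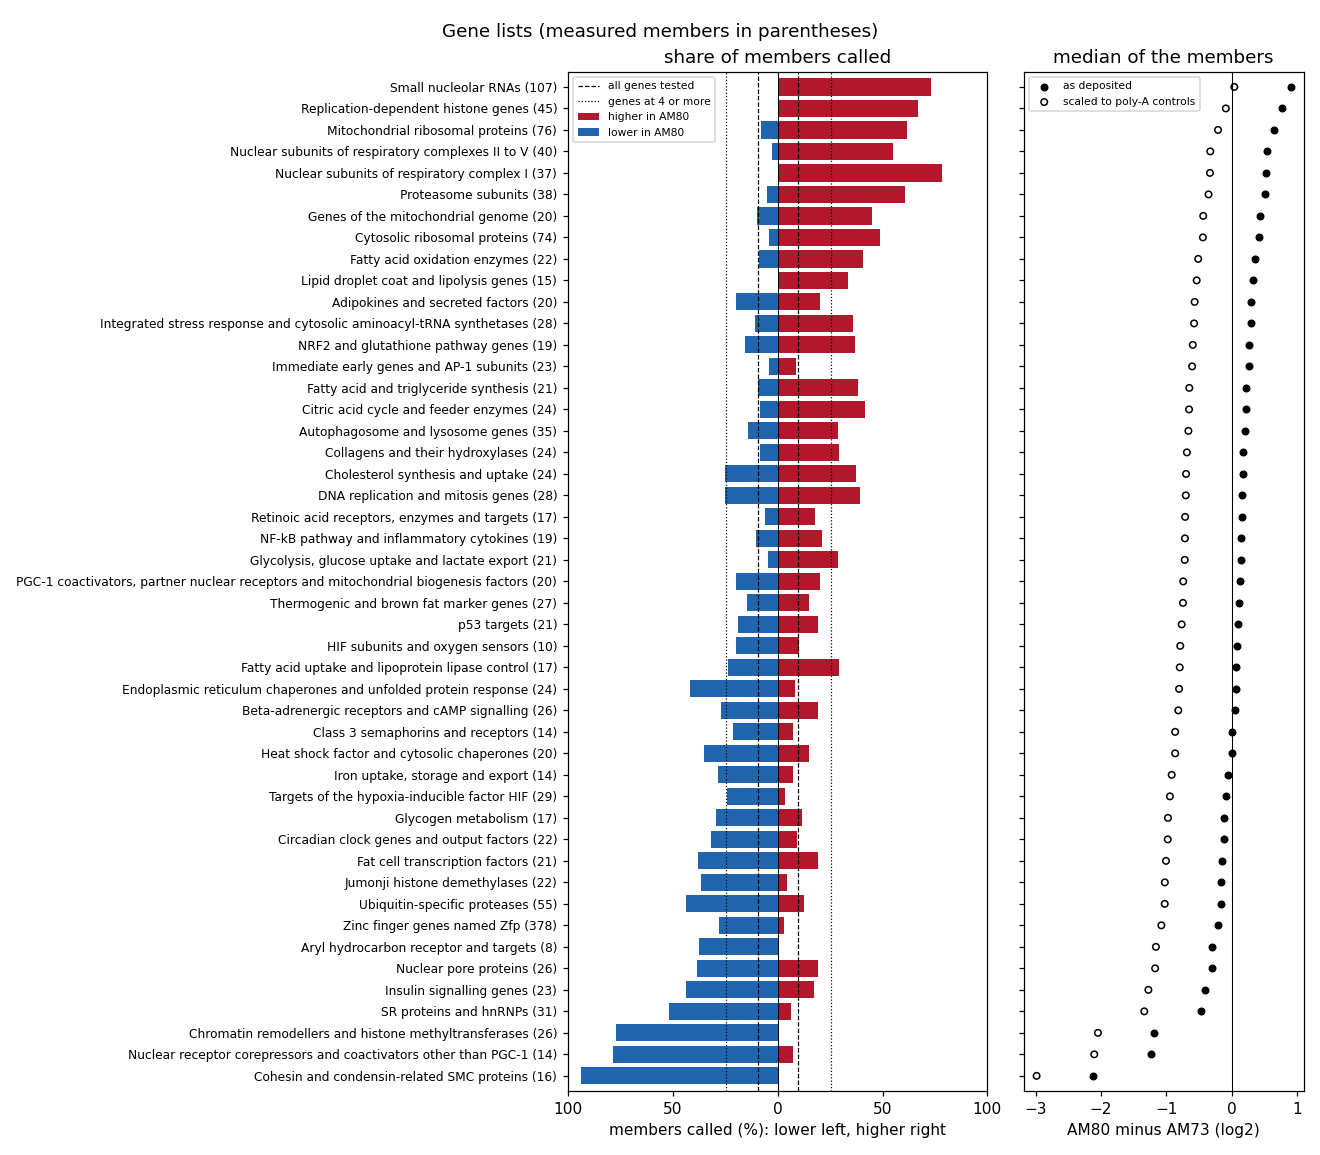
Left, share of measured members of each gene list called higher (right of 0) or lower (left of 0) with AM80 than with AM73, with the shares over all genes as broken lines and those over genes with a mean of at least 4 in the higher group (25.3% and 24.6%) as dotted lines. Right, median difference AM80 minus AM73 (log2) of each list as deposited and after scaling to the poly-A controls, under which 37 of 54 medians, marker lists included, changed sign. Lists of mitochondrial, histone and small nucleolar RNA genes stand at the top and cohesin, cofactor and chromatin genes at the bottom.

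Genes of the respiratory chain were mostly higher with AM80 at the deposited scaling. Of 37 nuclear subunits of complex I, which takes electrons from NADH, 29 were higher and 0 lower, with a median of 0.53 (−0.33 scaled to poly-A, and 1 lower in limma at an unadjusted p under 0.05). Ndufa2 had 8.98, 8.97 and 8.76 with AM80, against 8.19, 7.99 and 7.73 with AM73. Ndufb4 had 6.81, 6.76 and 6.80 with AM80, against 6.16, 6.21 and 6.13 with AM73. In both genes the groups did not overlap, with AM80 higher, by 0.93 and 0.62 (adjusted p = 0.00193 and 0.00169). DMSO had 8.22, 8.23 and 8.49 for Ndufa2, and Ndufa13 differed by 0.90 (adjusted p = 0.00192). Of 40 subunits of complexes II to V 22 were higher and 1 lower, with a median of 0.54 (−0.33 scaled to poly-A). Atp5e, a small subunit of ATP synthase, had 8.98, 8.52 and 8.21 with AM80, against 7.20, 7.36 and 6.99 with AM73, and was higher by 1.39 (adjusted p = 0.0013). Cox6b1 of cytochrome oxidase had 9.74, 9.66 and 9.29 with AM80, against 8.63, 8.74 and 8.50 with AM73, and its difference was 0.94 (adjusted p = 0.0021). Atp5k (1.10, adjusted p = 0.00218) and Sdhc of complex II (0.74, adjusted p = 0.0018) were higher as well. With plate column in the model 19 complex I genes and 13 of the other subunits were called higher.

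The machinery that makes mitochondrial proteins moved likewise. Of 76 mitochondrial ribosomal proteins 47 were higher and 6 lower, with a median of 0.66 (−0.21 scaled to poly-A). Mrpl54 had 9.04, 8.69 and 8.42 with AM80, against 7.40, 7.22 and 7.04 with AM73. Mrps26 had 8.28, 7.95 and 7.73 with AM80, against 6.98, 6.75 and 6.70 with AM73. Mrpl58 had 8.45, 8.28 and 8.00 with AM80, against 7.21, 7.30 and 7.11 with AM73. Each showed AM80 above AM73 on all arrays, by 1.5, 1.18 and 1.04 (adjusted p = 0.00151, 0.00145 and 0.00138), and Mrpl20 differed by 1.08 (adjusted p = 0.00154). The list of 20 genes of the mitochondrial genome holds rRNA and tRNA genes and no protein-coding gene. Of the 20, 9 were higher and 2 lower, with a median of 0.43 (−0.44 scaled to poly-A, and 7 called in all without AM73 replicate 1). Beside DMSO the list's median was 0.07 with AM80 and −0.48 with AM73. Its members named here are tRNA genes. The gene mt-Tf had 9.41, 8.69 and 8.71 with AM80, against 7.56, 7.42 and 7.77 with AM73, and was higher by 1.35 (adjusted p = 0.00147). Its DMSO arrays, at 8.78, 8.59 and 8.57, lay near AM80, so here AM73 was the group that stood lower. The leucine tRNA gene mt-Tl1 went the other way, with 10.23, 10.91 and 10.86 with AM80, against 11.80, 11.71 and 11.77 with AM73, and a difference of −1.09 (adjusted p = 0.00253). The alanine and histidine tRNA genes mt-Ta and mt-Th were higher by 1.20 and 1.28 (adjusted p = 0.00165 and 0.00237).

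Fuel burning genes leaned upward. Of 22 fatty acid oxidation enzymes 9 were higher and 2 lower, with a median of 0.35 (−0.51 scaled to poly-A). Acaa2, which splits the last bond in each round, had 9.74, 9.60 and 9.49 with AM80, against 8.79, 8.75 and 8.44 with AM73, and was higher by 0.95 (adjusted p = 0.00128). Etfb, which passes the electrons on, had 9.91, 9.46 and 9.15 with AM80, against 8.39, 8.54 and 8.29 with AM73, and was higher by 1.10 (adjusted p = 0.00258). The short-chain dehydrogenase Acads and the isomerase Eci1 differed by 1.06 and 1.01 (adjusted p = 0.00352 and 0.0017). Of 24 citric acid cycle and feeder enzymes 10 were higher and 2 lower, with a median of 0.21 (−0.65 scaled to poly-A). Under the plate column term 5 were called higher and 0 lower. Suclg1 (0.83, adjusted p = 0.00282), pyruvate carboxylase, encoded by Pcx (0.70, adjusted p = 0.00398), and Idh2 (0.65, adjusted p = 0.00547) were higher. Idh2 had 10.04, 9.88 and 9.77 with AM80, against 9.23, 9.38 and 9.14 with AM73, groups that did not overlap.

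Genes of fat storage and release followed no common direction. The fatty acid uptake list of 17 had 5 higher and 4 lower, with a median of 0.07 (−0.80 scaled to poly-A). The shares were 29.4% higher and 23.5% lower, near the 25.3% and 24.6% of genes with a mean of at least 4. Cd36, the main fatty acid importer, had 9.22, 9.52 and 9.85 with AM80, against 10.86, 11.08 and 11.12 with AM73, and was lower (−1.49, adjusted p = 0.00104). Lipoprotein lipase, encoded by Lpl, had 11.45, 11.30 and 11.45 with AM80, against 11.98, 12.23 and 12.20 with AM73, and was lower (−0.74, adjusted p = 0.00241). Both are PPARγ targets whose AM73 arrays lay near DMSO (11.25, 10.98 and 10.66 for Cd36 and 12.08, 11.99 and 11.80 for Lpl). Acsl4, which activates long fatty acids, was lower (−1.67, adjusted p = 0.00126), and Apoc1 was higher by 0.95 (adjusted p = 0.00353). Of 15 droplet and lipolysis genes 5 were higher and 0 lower, with a median of 0.33 (−0.54 scaled to poly-A, and 0 lower in limma at an unadjusted p under 0.05, and 2 or 3 called in all without AM80 replicate 2 or any AM73 replicate). G0s2, the inhibitor of the main fat lipase, had 10.35, 10.19 and 9.96 with AM80, against 9.70, 9.51 and 9.45 with AM73, and was higher by 0.61 (adjusted p = 0.0103), and the gene of that lipase, Pnpla2, was higher by 0.41 (adjusted p = 0.026, with 10.19, 10.16 and 9.96 with AM80, against 9.73, 9.62 and 9.73 with AM73). The droplet coat gene Plin3 and the droplet factor Fitm2 differed by 0.86 and 0.57 (adjusted p = 0.00521 and 0.0129). Calls of Pnpla2 and Fitm2 were lost with plate column in the model. The call of Fitm2 was also lost without AM80 replicate 2 (adjusted p = 0.0508), and that of Pnpla2 without any of 5 arrays, AM80 replicates 1 and 2 and each AM73 replicate (adjusted p from 0.0565 to 0.0863).

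Of 21 genes of fatty acid and triglyceride synthesis 8 were higher and 2 lower, with a median of 0.22 (−0.65 scaled to poly-A, and 6 called in all without AM80 replicate 1 or AM73 replicate 3). Under the plate column term 3 were called higher and 2 lower. Elovl6, which lengthens fatty acids, had 6.61, 6.17 and 6.48 with AM80, against 8.04, 8.15 and 8.21 with AM73, and was lower (−1.71, adjusted p = 0.000803). Thrsp, a lipogenic helper, had 11.61, 11.28 and 11.39 with AM80, against 10.78, 10.72 and 10.74 with AM73, with DMSO at 11.28, 11.34 and 11.28. AM80 thus lay near DMSO and AM73 stood lower, a difference of 0.68 (adjusted p = 0.00235). Gpd1 and Fads2 were higher by 0.65 and 0.73 (adjusted p = 0.00254 and 0.00314). Of 24 cholesterol genes 9 were higher and 6 lower, with a median of 0.17 (−0.70 scaled to poly-A). The plate column term gave 2 higher and 5 lower. Hmgcs1, an early enzyme, had 8.43, 8.59 and 9.01 with AM80, against 10.02, 9.96 and 9.90 with AM73, and was lower (−1.28, adjusted p = 0.00111). Msmo1 and the sterol carrier Stard4 were lower (−1.52 and −0.83, adjusted p = 0.00145 and 0.00185), whereas the isomerase Ebp was higher by 0.86 (adjusted p = 0.00185). Of 20 adipokines 4 were higher and 4 lower, with a median of 0.30 (−0.57 scaled to poly-A). Nampt, which makes a precursor of NAD, had 8.18, 8.20 and 8.70 with AM80, against 9.82, 9.84 and 9.92 with AM73, and was lower (−1.5, adjusted p = 0.0012), and Adipoq, the gene of adiponectin, named after its values were seen, was higher by 0.46 (adjusted p = 0.021). The call of Adipoq was lost with plate column in the model and without any of AM80 replicates 1 and 2 and AM73 replicates 1 and 3 (adjusted p from 0.0545 to 0.0756).

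Fat cell transcription factors were split as well, with 4 of 21 higher and 8 lower and a median of −0.14 (−1.01 scaled to poly-A). The glucocorticoid receptor gene Nr3c1 had 5.13, 5.72 and 5.40 with AM80, against 6.94, 7.13 and 7.24 with AM73, and was lower (−1.69, adjusted p = 0.000882). Klf9 and Ebf1 were lower (−1.19 and −1.52, adjusted p = 0.00116 and 0.00165). Cebpa, the partner of PPARγ in fat cells, had 9.60, 9.35 and 8.92 with AM80, against 8.23, 8.40 and 8.24 with AM73, and was higher by 1.00 (adjusted p = 0.00322). Pparg and Cebpa, which act together in fat cells, therefore differed in opposite directions between the compounds.

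Genes of protein making and breakdown were called higher with AM80 more often than lower. Of 74 cytosolic ribosomal proteins 36 were higher and 3 lower, with a median of 0.42 (−0.44 scaled to poly-A, and 25 called in all without AM73 replicate 3), and 33 of the 74 have probes given as cross-hybridising. Rps27l, with no such probes, had 5.51, 5.47 and 5.36 with AM80, against 4.69, 4.96 and 4.82 with AM73, and was higher by 0.62 (adjusted p = 0.00309). Of 38 proteasome subunits 23 were higher and 2 lower, with a median of 0.51 (−0.35 scaled to poly-A). Psma7 of the core ring had 10.00, 9.60 and 9.52 with AM80, against 8.60, 8.72 and 8.46 with AM73. Psmb3 had 5.21, 4.80 and 4.68 with AM80, against 3.61, 3.89 and 3.56 with AM73. Psmd9, an assembly chaperone, had 6.43, 6.22 and 6.19 with AM80, against 5.29, 5.24 and 5.28 with AM73. In each of them the groups lay apart, by 1.11, 1.21 and 1.01 (adjusted p = 0.00106, 0.00112 and 0.000903). Psmb1 was higher by 0.89 (adjusted p = 0.00117). Of 28 stress response and tRNA synthetase genes 10 were higher and 3 lower, with a median of 0.29 (−0.58 scaled to poly-A, and 7 or 8 called in all without AM80 replicate 1, AM80 replicate 2 or any AM73 replicate). The cystine importer gene Slc7a11 had 5.42, 5.74 and 6.17 with AM80, against 7.90, 7.87 and 7.79 with AM73, and was lower (−2.08, adjusted p = 0.00108), and Eprs, a tRNA synthetase, by −1.38 (adjusted p = 0.00127). Psph and Shmt2 of serine metabolism were higher by 1.07 and 0.94 (adjusted p = 0.00192 and 0.00297).

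Chaperone lists held more falls than rises, with medians near 0. Of 24 chaperone and unfolded protein genes of the endoplasmic reticulum 10 were lower and 2 higher, with a median of 0.06 (−0.81 scaled to poly-A, and 7 called in all without AM73 replicate 1 or AM73 replicate 3). Hsp90b1, its HSP90, had 8.47, 8.63 and 8.93 with AM80, against 9.79, 10.08 and 10.19 with AM73, and was lower (−1.34, adjusted p = 0.000882). Canx and Dnajb9 were lower (−1.07 and −1.26, adjusted p = 0.00153 and 0.00146), and Sdf2l1 was higher by 0.98 (adjusted p = 0.00535). Of 20 heat shock genes 7 were lower and 3 higher, with a median of 0.00 (−0.87 scaled to poly-A). Chordc1, a partner of HSP90, had 5.46, 5.84 and 5.92 with AM80, against 7.49, 7.42 and 7.32 with AM73, and was lower (−1.67, adjusted p = 0.000641). Hsp90aa1 had 5.24, 4.76 and 5.19 with AM80, against 6.22, 6.34 and 6.51 with AM73, and was lower (−1.29, adjusted p = 0.000864). The small heat shock gene Cryab had 6.20, 6.03 and 6.14 with AM80, against 5.24, 5.37 and 5.21 with AM73, and was higher by 0.85 (adjusted p = 0.000887), and Hspa4l was lower (−1.77, adjusted p = 0.000956). The AM73 arrays lay near DMSO in Chordc1 (7.48, 7.44 and 7.32) and Cryab (5.31, 5.31 and 5.19), so in these genes AM80 was the group that stood apart.

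Histone and small nucleolar RNA lists had the highest medians of the pathway lists. Of 45 replication-dependent histone genes, whose short mRNAs carry no poly(A) tail, 30 were higher and 0 lower, with a median of 0.78 (−0.09 scaled to poly-A, and 0 lower in limma at an unadjusted p under 0.05), and 13 have cross-hybridising probes. H2bc4 had 10.46, 10.45 and 10.43 with AM80, against 9.20, 9.15 and 9.24 with AM73, with DMSO at 10.16, 9.90 and 9.98. Its groups were tight, and it was higher by 1.25 (adjusted p = 0.000641), with DMSO nearer to AM80. H2bc18 had 7.16, 7.27 and 7.0 with AM80, against 5.73, 6.17 and 5.99 with AM73, and was higher by 1.18 (adjusted p = 0.001). H4f16 differed by 1.81 (adjusted p = 0.000864), with cross-hybridising probes. Of 107 small nucleolar RNA genes, guides of RNA modification that lie within introns of other genes, 78 were higher and 0 lower, with a median of 0.91 (0.04 scaled to poly-A, and 1 lower in limma at an unadjusted p under 0.05). Snord15a had 8.44, 8.11 and 7.84 with AM80, against 6.55, 6.36 and 6.50 with AM73. Snora69 had 8.60, 8.12 and 8.18 with AM80, against 6.75, 6.95 and 6.85 with AM73. They were higher by 1.66 and 1.45 (adjusted p = 0.000664 and 0.000809), and AM73 lay near DMSO (6.60, 6.61 and 6.95 for Snord15a). Snora43 and Snora73a differed by 1.5 and 1.22 (adjusted p = 0.000887 and 0.00107), with cross-hybridising probes. Of the 107, 43 have such probes. Histones and small nucleolar RNA genes kept 23 and 53 rises with plate column in the model.

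Cohesin and condensin, ring-shaped complexes that hold and loop DNA, were nearly uniform in the other direction. Of 16 genes 15 were lower and 0 higher, with a median of −2.12 (−2.99 scaled to poly-A, and 0 higher in limma at an unadjusted p under 0.05). Nipbl, which loads cohesin, had 5.02, 4.97 and 5.23 with AM80, against 7.57, 7.74 and 7.85 with AM73, and fell by 2.65 ± 0.21 (SE, adjusted p = 0.000641). Wapl, which takes it off, had 5.45, 5.15 and 5.53 with AM80, against 7.29, 7.32 and 7.58 with AM73, and was lower (−2.02, adjusted p = 0.000641). The ring members Smc3, Smc1a and Rad21 were lower (−2.34, −1.54 and −1.46, adjusted p = 0.000769, 0.00166 and 0.00145), and Stag2 by −2.45 (adjusted p = 0.000882), these 4 named after their values were seen. In Smc3 the arrays had 5.96, 6.20 and 6.83 with AM80, against 8.55, 8.63 and 8.84 with AM73, groups more than 1.5 apart. Smc2 of condensin had 4.81, 5.15 and 5.54 with AM80, against 7.23, 7.41 and 7.45 with AM73, and was lower (−2.20, adjusted p = 0.000641). Only Mau2, the partner of Nipbl in loading, was not called (7.39, 7.40 and 7.42 with AM80, against 7.28, 7.24 and 7.26 with AM73, 0.14, 95% interval −0.10 to 0.38, adjusted p = 0.427). The 15 falls stayed called with plate column in the model, and in each fit that left out an array 15 members were called.

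Chromatin regulators were likewise lower. Of 26 remodellers and histone methyltransferases 20 were lower and 0 higher, with a median of −1.18 (−2.05 scaled to poly-A, and 0 higher in limma at an unadjusted p under 0.05). The remodeller Atrx had 4.20, 4.69 and 5.10 with AM80, against 7.09, 7.13 and 7.42 with AM73. The methyltransferase Nsd1 had 5.33, 5.92 and 5.56 with AM80, against 7.24, 7.16 and 7.39 with AM73. They were lower (−2.55 and −1.66, adjusted p = 0.000756 and 0.000845), without overlap of the groups. Arid2 and Setd5 were lower (−2.05 and −1.37, adjusted p = 0.00096 and 0.000908). Of 22 Jumonji demethylases, which use oxygen and oxoglutarate as the HIF hydroxylases do, 8 were lower and 1 higher, with a median of −0.16 (−1.02 scaled to poly-A). Kdm6a had 4.68, 4.20 and 5.39 with AM80, against 6.98, 7.20 and 7.19 with AM73, and was lower (−2.37, adjusted p = 0.000864), and Kdm7a and Jmjd1c by −2.35 and −2.34 (adjusted p = 0.0012 and 0.00133). In contrast to Kdm3a, the AM73 levels of Kdm6a lay close to DMSO (6.94, 6.84 and 6.29).

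RNA handling and transport genes followed. Of 31 SR proteins and hnRNPs, which steer splicing, 16 were lower and 2 higher, with a median of −0.47 (−1.34 scaled to poly-A). Hnrnph1 had 5.63, 5.92 and 6.26 with AM80, against 7.34, 7.51 and 7.79 with AM73, and was lower (−1.61, adjusted p = 0.00159), and Hnrnph2 by −1.23 (adjusted p = 0.00185). Hnrnpr was lower (−0.63, adjusted p = 0.00307), and a second, dimmer cluster of it differed by −2.03. Of 26 nuclear pore proteins 10 were lower and 5 higher, with a median of −0.31 (−1.17 scaled to poly-A, and 9 called in all without AM73 replicate 1). Tpr of the pore basket had 5.31, 5.73 and 5.64 with AM80, against 7.78, 7.68 and 7.90 with AM73, and was lower (−2.23, adjusted p = 0.000741). Seh1l and Nup153 were lower (−1.06 and −1.48, adjusted p = 0.000809 and 0.00128). Seh1l stood above DMSO with AM73 (0.53) and below it with AM80 (−0.52).

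Zinc finger and ubiquitin protease genes were larger families with the same lean. Of 378 measured genes named Zfp 105 were lower (27.8%) and 12 higher (3.17%), with a median of −0.21 (−1.08 scaled to poly-A). Their median level was 3.77 and 192 had a mean below 4 in the higher group, so many were near background. Over all genes tested 9.22% were lower and 9.92% higher, and 24.6% and 25.3% among genes with a mean of at least 4. Zfp638, a zinc finger protein known to act in fat cell differentiation, had 4.11, 4.60 and 4.87 with AM80, against 6.80, 7.06 and 6.96 with AM73, and was lower (−2.41, adjusted p = 0.000641). Zfp654 and Zfp800 were lower (−2.39 and −1.45, adjusted p = 0.000641 and 0.000693). Of 55 ubiquitin-specific proteases 24 were lower and 7 higher, with a median of −0.16 (−1.03 scaled to poly-A). Usp32 had 4.34, 4.14 and 4.55 with AM80, against 6.56, 6.58 and 6.55 with AM73, and was lower (−2.22, adjusted p = 0.000641). Usp34 and Usp1 were lower (−2.57 and −1.72, adjusted p = 0.000699 and 0.000693).

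Signalling genes gave mixed counts. Of 23 insulin signalling genes 10 were lower and 4 higher, with a median of −0.41 (−1.28 scaled to poly-A, and 9 called in all without AM80 replicate 1, AM80 replicate 2, AM73 replicate 1 or AM73 replicate 2). The plate column term gave 7 lower and 0 higher. Gsk3b had 7.64, 7.92 and 8.36 with AM80, against 9.40, 9.47 and 9.65 with AM73, and was lower (−1.53, adjusted p = 0.000769), while Rictor and Pik3r1 were lower (−2.20 and −1.49, adjusted p = 0.00145 and 0.00185). Of 26 β-adrenergic and cAMP genes 7 were lower and 5 higher, with a median of 0.05 (−0.82 scaled to poly-A, and 5 or 6 called in all without AM80 replicate 1 or any AM73 replicate). The shares were 26.9% lower and 19.2% higher, against 24.6% and 25.3% of genes with a mean of at least 4. Pde3b, the cAMP-degrading enzyme by which insulin holds back fat release, had 8.72, 8.58 and 8.67 with AM80, against 10.02, 9.99 and 9.85 with AM73, and was lower (−1.30, adjusted p = 0.000641). Its AM73 arrays were 0.60 above DMSO and its AM80 arrays differed from DMSO by −0.69. Creb1 was lower (−1.03, adjusted p = 0.00115), and Adcy5 was higher by 0.89 (adjusted p = 0.00844). Of this list 3 genes were called lower and 0 higher with plate column in the model, so the calls of all 5 rises, that of Adcy5 among them, were lost.

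Of 22 circadian genes 7 were lower and 2 higher, with a median of −0.11 (−0.98 scaled to poly-A, and 4 or 5 called in all without AM80 replicate 2, AM73 replicate 2 or AM73 replicate 3). Beside Clock, its partner Arntl had 6.24, 6.40 and 6.67 with AM80, against 7.26, 7.20 and 7.07 with AM73, and was lower (−0.74, adjusted p = 0.00609). Rora, a nuclear receptor of the loop, was lower (−1.30, adjusted p = 0.00442). Nr1d1, the repressor of the loop, was not called (0.15, 95% interval −0.13 to 0.43, adjusted p = 0.482). Of 21 p53 targets 4 were higher and 4 lower, with a median of 0.10 (−0.77 scaled to poly-A, and 4 or 5 called in all without AM80 replicate 1, AM80 replicate 2, AM73 replicate 2 or AM73 replicate 3). That was 19.0% each way, under the 25.3% and 24.6% of genes with a mean of at least 4. Ccng1 had 5.83, 6.47 and 6.79 with AM80, against 8.50, 8.55 and 8.86 with AM73, and was lower (−2.27, adjusted p = 0.000778), and Fas by −1.08 (adjusted p = 0.00752). The p53 antagonist Mdm2 was lower (−0.95, adjusted p = 0.0102), a call lost with the column term. Of 28 replication and mitosis genes 11 were higher and 7 lower, with a median of 0.16 (−0.70 scaled to poly-A). Mki67 had 6.05, 6.45 and 6.86 with AM80, against 8.85, 8.78 and 9.23 with AM73. Top2a had 5.91, 6.06 and 6.19 with AM80, against 7.96, 8.39 and 8.43 with AM73, both lower (−2.50 and −2.21, adjusted p = 0.000882 and 0.000648). Plk1, also a mitosis gene, had 8.61, 8.70 and 8.69 with AM80, against 7.78, 7.82 and 7.86 with AM73, and was higher by 0.85 (adjusted p = 0.000803), so cycle genes did not differ as a block.

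Of 14 iron genes 4 were lower and 1 higher, with a median of −0.05 (−0.92 scaled to poly-A). The shares were 28.6% lower and 7.14% higher, against 24.6% and 25.3% of genes with a mean of at least 4. Tfrc, the transferrin receptor, had 6.59, 6.98 and 7.44 with AM80, against 9.17, 9.39 and 9.63 with AM73, with DMSO at 8.78, 8.49 and 8.13. With AM80 it fell by 2.39 ± 0.23 (SE, adjusted p = 0.000658), and the compounds lay on opposite sides of DMSO (−1.46 for AM80 and 0.93 for AM73). Ireb2, an iron sensor, was lower (−2.19, adjusted p = 0.000641), and the mitochondrial iron importer gene Slc25a28 was higher by 0.68 (adjusted p = 0.00572). Of 19 NRF2 and glutathione genes 7 were higher and 3 lower, with a median of 0.27 (−0.60 scaled to poly-A). Taldo1 and Tkt of the pentose phosphate pathway were higher by 0.92 and 0.61 (adjusted p = 0.00253 and 0.00702), and Gclc, which starts glutathione synthesis, was lower (−0.84, adjusted p = 0.00256, with 7.69, 7.66 and 8.12 with AM80, against 8.80, 8.58 and 8.61 with AM73). Of 17 glycogen genes 5 were lower (29.4%) and 2 higher (11.8%), with a median of −0.11 (−0.98 scaled to poly-A). Ugp2 had 6.45, 6.74 and 6.90 with AM80, against 7.97, 7.87 and 7.95 with AM73, and was lower (−1.23, adjusted p = 0.000788), Gbe1 was lower (−0.77, adjusted p = 0.00183), and Pgm1 was higher by 0.65 (adjusted p = 0.00699).

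Lysosome, matrix and inflammation lists held calls in both directions. Of 35 autophagy and lysosome genes 10 were higher and 5 lower, with a median of 0.20 (−0.66 scaled to poly-A, and 8 or 9 called in all without AM80 replicate 1 or AM73 replicate 3). The shares were 28.6% higher and 14.3% lower, against 25.3% and 24.6% of genes with a mean of at least 4. The plate column term gave 3 higher and 3 lower. Lamp2 was lower (−1.33, adjusted p = 0.000894, with 7.11, 7.23 and 7.68 with AM80, against 8.58, 8.67 and 8.76 with AM73) and Atg5 by −0.89 (adjusted p = 0.00108). Of 24 collagen genes 7 were higher (29.2%) and 2 lower (8.33%), with a median of 0.18 (−0.69 scaled to poly-A, and 4 or 5 called in all without AM80 replicate 2, AM73 replicate 1 or AM73 replicate 2). The crosslinking enzyme gene Lox was lower (−1.81, adjusted p = 0.0036) while Loxl1 was higher by 0.66 (adjusted p = 0.00808). Of 19 NF-κB genes 4 were higher and 2 lower, with a median of 0.15 (−0.72 scaled to poly-A, and 3 called in all without AM80 replicate 2). Rel was lower (−1.54, adjusted p = 0.00202) and the chemokine gene Ccl5 higher by 1.15 (adjusted p = 0.00368, with 5.54, 5.36 and 5.0 with AM80, against 3.69, 4.34 and 4.42 with AM73). Of 17 retinoic acid genes 3 were higher and 1 lower, with a median of 0.15 (−0.71 scaled to poly-A, and 1 or 2 called in all without AM80 replicate 1, AM73 replicate 1 or AM73 replicate 3), and Tgm2, a retinoid target, was higher by 1.03 (adjusted p = 0.00443). The shares were 17.6% higher and 5.88% lower, against 9.92% and 9.22% of all genes tested, and 11 of the 17 had a mean below 4 in the higher group. Immediate early genes had 2 of 23 higher (8.7%) and 1 lower (4.35%), with a median of 0.26 (−0.61 scaled to poly-A). In limma 0 of them were called without AM80 replicate 1 or AM73 replicate 2 (6 at an unadjusted p under 0.05 each time) and 1 without AM73 replicate 3.

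Some genes stood above DMSO with both compounds and were not called between them. The AP-1 subunit gene Fosl1 had 7.37, 7.19 and 7.19 with AM80, against 7.14, 6.93 and 6.99 with AM73, with 5.10, 5.09 and 5.81 for DMSO. Its AM80 arrays lay just above its AM73 arrays, and it was not called (0.23, 95% interval −0.18 to 0.64, adjusted p = 0.462). The semaphorin gene Sema3g had 6.77, 6.43 and 6.44 with AM80, against 6.18, 6.34 and 6.16 with AM73. The fatty acid receptor gene Ffar4 had 9.26, 9.0 and 8.88 with AM80, against 8.43, 8.43 and 8.43 with AM73. Both had every AM80 array above every AM73 array and neither was called (0.32, 95% interval 0.04 to 0.59, adjusted p = 0.107 for Sema3g and 0.62, 95% interval 0.14 to 1.10, adjusted p = 0.0774 for Ffar4). Their intervals lie above 0 before adjustment over all genes. Ffar4 passed with the 6 arrays of the compounds alone (adjusted p = 0.0160) and without DMSO replicate 1 or 3 (0.0407 and 0.0120). Of 14 semaphorin and receptor genes 3 were lower and 1 higher, with a median of 0.00 (−0.87 scaled to poly-A). The shares were 21.4% lower and 7.14% higher, against 24.6% and 25.3% of genes with a mean of at least 4. In 6 of the 14 the mean was below 4 in the higher group. The receptor gene Nrp1 had 6.98, 6.92 and 7.10 with AM80, against 7.70, 7.74 and 7.99 with AM73, and was lower (−0.81, adjusted p = 0.00146), and Plxnd1 was higher by 0.62 (adjusted p = 0.00398).

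**Figure D5:**
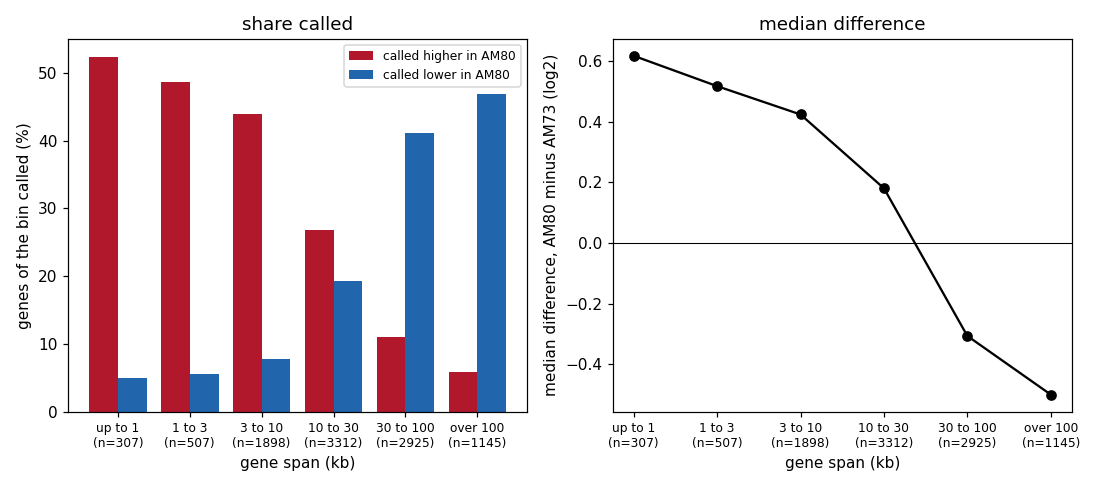
Left, share of genes called higher and lower with AM80 than with AM73 in bins of gene span (kb), for genes with a mean of at least 4 in the higher group. Right, median difference AM80 minus AM73 (log2) in the same bins. Calls higher with AM80 were more common in short genes, and calls lower with AM80 in long genes.

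Called genes shared a feature outside their function, the length of DNA from the first to the last base of the gene, its span. Among genes with a mean of at least 4 in the higher group and a span in RefSeq, 10094 in all, the median span was 10250 bp for genes higher with AM80, 46960 bp for genes lower and 22222 bp for genes not called. Of 307 such genes up to 1000 bp, 52.4% were higher and 4.89% lower. Of 1145 longer than 100000 bp, 5.85% were higher and 46.9% lower. The median difference was 0.62 in the shortest bin and −0.50 in the longest. Spearman's rho of span and difference was −0.50 over these genes, which share the arrays and are not independent replicates, so no p is given. It was −0.50, −0.47 and −0.46 for AM80 replicates 1, 2 and 3 taken singly against the AM73 mean. Within levels of 6 to 8 the share called higher was 68.0% below 3000 bp and 8.83% above 100000 bp, and the share called lower was 2.63% and 50.6%. The lists follow this order in part: the median span was 7798 bp for complex I, 502 bp for histones, 82 bp for small nucleolar RNA genes, 51522 bp for cohesin and 98334 bp for chromatin genes. The part of span in any list's difference was not tested.

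Promoter letters were compared in the same way. Genes higher with AM80 had a median GC content of 60.7% in their promoter windows and genes lower had 62.7%, over 1995 and 2047 genes with a mean of at least 4 in the higher group. The HIF word ACGTG, on either strand, was held by 30.5% of genes higher and by 31.4% of genes lower, against 30.8% of all genes at that level. The ETS word CCGGAAG, also on either strand, was held by 25.5% of genes higher and 21.6% of genes lower, against 22.5% of all genes at that level. The CRE word TGACGTCA was held by 3.46% and 4.3%, and TATAAA by 6.97% and 7.91%. The ERR word TCAAGGTCA was rare, in 9 of 1995 genes higher (0.451%) and 2 of 2047 genes lower (0.0977%), against 0.326% of genes at that level. The share of all windows of this length was 8.86% for the ETS word, 1.79% for the CRE word, 0.423% for the ERR word and 13.6% for TATAAA. No word lies within another, both strands were searched, and a missing word says only that these letters are not in this window.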

How the data were processed

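RNA was taken with Isol reagent, and 100 ng of total RNA per sample was labelled for Affymetrix mouse whole-transcript arrays, per the labels' protocols. The deposited values are log2 levels that the authors made by RMA (background correction, then quantile normalization, then summary by median polish) in Affymetrix Expression Console (version 1.41 per the submitters' processing notes), with NetAffx build 35 on mm10, per the file headers. The deposited table also gives p-values and q-values of a Student's t-test. How the authors made the q-values is not stated. RMA and quantile normalization set arrays to a common distribution, so a shift of most genes in 1 direction is removed from the log2 values.

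Of 41345 features, 33793 were genes and 32202 had a symbol. Symbols were updated to RefSeq through Entrez numbers for 25099 features, which renamed 1913. The brightest cluster was kept where a symbol had several (772 symbols), leaving 30860 genes, 3415 of them with probes given as cross-hybridising. limma (version 3.58.1 in R 4.3.3) was fitted to all 9 arrays, with 6 residual degrees of freedom and a two-sided test. Arrays were grouped by the compound in their labels. Replicate numbers were not used as pairs, since same-numbered AM80 and AM73 arrays had correlations of deviations of 0.03, 0.00 and 0.07. Control features were compared by exact permutation tests. The fit was tested on simulated data.

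The members and the 47 pathway lists and 7 marker lists (1654 distinct genes, 1643 measured) were chosen with earlier results of these data known. Named genes were the 12 largest rises and 12 largest falls among called genes without overlap of the groups, with a mean of at least 4 in the higher group, without cross-hybridising probes and without provisional, microRNA, small nucleolar RNA or olfactory names, a set of 14 genes of the pathways at hand, and up to 4 members per list by adjusted p. Cyp1a1, Fabp4, Hk2, Ldha, Mau2, Nr1d1 and Prdm16 fall outside that rule and were chosen after their values were seen. Some genes that the rule names are not reported here. Alternatives changed the gene filter, scaling, arrays, blocks, moderation, weights and test. Gene spans and promoters were read from RefSeq GRCm38.p6. Its transcripts placed 201 genes on another chromosome than the array annotation does.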

Additional observations from a re-analysis of the deposited data

Results flagged for a closer look

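A signal was present in features that the comparison of genes does not use. Of 1591 gene features that carry no symbol, limma, fitted on these features alone, called 163 between AM80 and AM73 (10.2%), 107 higher with AM80 and 56 lower, with differences from −3.58 to 2.25 on the log2 scale. Between AM80 and DMSO it called 67 of them (4.21%), a comparison that shares the AM80 arrays. The features have no gene name in the deposited annotation and are not described further. Groups of 3 arrays are too small for a test of single arrays that lie far from the others.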

How the results depend on the processing

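Most named calls held when arrays were left out. Column 5 alone and the antigenomic covariate ended all of them, the methods' t-test ended 78, poly-A scaling 71 and the authors' q-value 42. Of 184 called genes that the text names, 178 to 184 stayed called in the same direction when an array was left out, 183 with the replicate block and 172 with plate column in the model. Most of these genes were chosen by their calls in these same arrays, so their share does not stand for all calls. Of all 5907 called genes, 4072 (without AM73 replicate 3) to 5641 (without DMSO replicate 3) were also called when an array was left out. The plate column term left 3385 of them. The main count of 5907 (3061 higher, 2846 lower) became 3513 with plate column in the model (1478 higher, 42.1% of calls) and 1809 by the methods' Student's t-test on linear values with Benjamini-Hochberg adjustment (548 higher, 1261 lower). The authors' deposited table gave 3475 q-values under 0.05 (1468 higher, 42.2%). Centring arrays on their median gave 5424, of which 40.7% were higher, against 51.8% in the main result. Within plate column 5 limma called 0 genes (0 higher, 0 lower, 5446 at an unadjusted p under 0.05, lowest adjusted p 0.224), and with the antigenomic covariate 0 (4572 unadjusted, lowest adjusted p 0.0609). In column 5 alone 1 AM73 array and 1 DMSO array remain, assumed to vary like the AM80 arrays. Scaling to the poly-A controls gave 22153 calls, 21 higher and 22132 lower, of which 2867 were also called in the main result, and changed the sign of 37 of 54 list medians. Over all genes the median called rise of 0.69 was smaller than the 0.87 by which that scaling lowered every difference. Of the 184 called genes that the text names, 32 turned negative under it, all of them rises: Adipoq (−0.41), Adrb3 (−0.45), Cryab (−0.015), Ebp (−0.0087), Egln2 (−0.19), Eno3 (−0.052), Fads2 (−0.14), Fitm2 (−0.30), G0s2 (−0.25), Gpd1 (−0.22), Higd1a (−0.43), Idh2 (−0.22), Kcnk3 (−0.12), Ldhb (−0.0021), Loxl1 (−0.20), Ndufb4 (−0.24), Pcx (−0.16), Pfkm (−0.17), Pgm1 (−0.22), Plin3 (−0.0054), Plk1 (−0.019), Plxnd1 (−0.24), Pnpla2 (−0.46), Polrmt (−0.12), Ppard (−0.10), Rps27l (−0.24), Rxra (−0.25), Sdhc (−0.12), Slc25a28 (−0.18), Suclg1 (−0.035), Thrsp (−0.19) and Tkt (−0.25). The other settings, a fold of at least 1.5 among them, gave 4147 (ordinary linear model) to 6700 calls (array weights). The cause of these shifts was not tested. Leaving out an array gave 4164 (without AM73 replicate 3) to 6453 calls (without AM80 replicate 3), with 1969 (without AM73 replicate 3) to 3308 higher and 2195 to 3145 lower. Of list members, 787 were called, 497 with the column in the model, 0 within column 5, 0 with the covariate and 579 to 808 without an array. Spearman's rho of span and difference was −0.50, and −0.38 among genes above the 40th percentile of level. The replicate block gave 5063 calls, 4931 of them shared with the main result, and changed no call named in the text but that of Pnpla2, which was lost, and that of Prdm16, which was gained. Other gains, poly-A scaling aside, were Ffar4 and Prdm16 among genes above the 40th percentile, Ffar4 with 6 arrays and without DMSO replicate 1 or 3, Prdm16 after median centring, P4ha1 and Sema3g after quantile normalization again, and Mau2 by the authors' q-value and the methods' t-test. Replicate numbers are shared labels only.

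Without single arrays the control features kept their sign: from 0.95 to 1.28 for the median of the poly-A controls, 0.63 to 1.03 for their mean, 0.61 to 1.09 for the bright antigenomic sets, 0.16 to 0.36 for the hybridisation controls, 0.03 to 0.11 for the antigenomic median, −0.36 to −0.24 for intron and −0.31 to −0.18 for exon controls. With 3 arrays a group, small differences near background cannot be resolved.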
